A study of Mus musculus with 6 samples.

Results

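The genes described here are 7 genes of the neural crest and of the Schwann cell precursors that come from it, namely *Sox10*, *Foxd3*, *Ets1*, *Snai2*, *Twist1*, *Erbb3* and *Ednrb*. Each was taken as the transcript cluster of the array, the probes of one locus, whose annotated symbol is exactly that of the gene. Each has 1 such cluster, and the 7 stand among 14860 genes with a cluster that names them alone. The RNA came from GFP+ cells sorted out of the dissociated dorsal spinal cord in *Wnt1-cre*;*Rosa26mTmG* mouse embryos of 3 stages, E10.5, E11.5 and then E12.5, with 2 arrays for each and 6 in all. All 3 groups carry the same alleles and got no treatment, and stage is the only difference the labels give. Cre made under *Wnt1* control turns on GFP in cells of the dorsal neural tube, crest cells included, and in their progeny, so the GFP gate itself does not part crest from spinal cord cells. No GFP-negative or crest-only sample was analysed here. The labels call the sorted cells commissural neurons, and neither they nor the methods say if both arrays of one stage stand for different litters or pools. Strain and sex are not given. What a p-value measures here is only how far these arrays spread, which may be technical.

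Neural crest cells arise at the border of the closing neural tube, leave it and spread through the embryo, where they form sensory and autonomic ganglia, the glia of nerves, and melanocytes. Foxd3, Snai2, Ets1 and Sox10 are transcription factors of premigratory and early migratory crest, and Twist1 is a basic helix-loop-helix factor of crest-derived and other mesenchyme. Sox10 is later kept in glia and melanoblasts. ErbB3 is the receptor through which neuregulin 1 sustains Schwann cell precursors, and the endothelin receptor type B, encoded by *Ednrb*, is needed by melanoblasts and enteric crest cells. None of the 7 is a gene of crest alone. For example, *Ednrb* is also made by neural progenitors, *Sox10* by oligodendrocyte precursors, *Ets1* by endothelium and *Twist1* by mesoderm. A signal of any of the 7, *Foxd3* included, thus does not by itself mark crest cells.

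The deposited values are log2 signals. Median signals of the arrays lay between 5.33 and 5.73. The array of E10.5 replicate 1 stood apart, its signals correlating with those of the rest at a mean r of 0.89 across clusters, where the remaining 5 had 0.948 to 0.955. As a background, 844 clusters of olfactory, vomeronasal, taste and trace amine receptors were used, and the 95th percentile of their signals on an array was taken as its detection limit. This limit was 6.59, 6.17 and 6.55 on the replicate 1 arrays of E10.5, E11.5 and E12.5, and 5.37, 5.37 and 5.39 on the replicate 2 arrays. A signal of 6 thus lay below the limit on each replicate 1 array and above it on each replicate 2 array. A signal below the limit does not show that a gene is silent.

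Promoters of 3 of the 7 genes are in the RefSeq table used here (build GRCm38.p6). They are shown because *Snai2*, *Twist1* and *Sox10* encode proteins that bind short motifs, and these stretches can be searched for them. Each line gives the 250 bases before the transcription start, and capitals mark motifs. *Foxd3* lies at chr4:99656049-99656298 on the plus strand, *Twist1* at chr12:33957421-33957670 on the plus strand, and *Ednrb* at chr14:103843702-103843951 on the minus strand.
Foxd3: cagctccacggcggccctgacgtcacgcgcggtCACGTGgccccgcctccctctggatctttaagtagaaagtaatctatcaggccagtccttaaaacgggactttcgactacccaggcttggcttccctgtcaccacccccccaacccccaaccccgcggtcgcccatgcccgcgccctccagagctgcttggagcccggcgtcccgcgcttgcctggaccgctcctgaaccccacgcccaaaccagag
Twist1: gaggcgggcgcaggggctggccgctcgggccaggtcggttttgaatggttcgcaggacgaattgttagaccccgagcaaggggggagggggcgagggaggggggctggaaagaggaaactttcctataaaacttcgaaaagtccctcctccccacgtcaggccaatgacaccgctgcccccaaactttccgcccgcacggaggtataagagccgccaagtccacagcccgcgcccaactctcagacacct
Ednrb: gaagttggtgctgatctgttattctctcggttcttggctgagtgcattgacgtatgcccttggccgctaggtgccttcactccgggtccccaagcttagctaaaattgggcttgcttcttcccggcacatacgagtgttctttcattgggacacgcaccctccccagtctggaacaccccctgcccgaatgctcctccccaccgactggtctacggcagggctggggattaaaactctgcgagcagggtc
The motifs searched on both strands were the E-box CANNTG, bound by basic helix-loop-helix factors, and the SOX motifs ACAATG and ACAAAG. The *Foxd3* stretch held 1 E-box, CACGTG, which starts 217 bases before the transcription start, and neither of the other stretches held an E-box. Of 32851 promoter stretches of the same length, 66.2% held an E-box. No stretch of the 3 held a SOX motif, against 25.2% of all stretches, nor the E-box forms CACCTG or CAGGTG that Snail factors bind, which are part of CANNTG and which 17.2% held. These are counts of letters and do not say what binds there.

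*Ednrb* had the widest margin over the detection limit of the 7 genes. Its log2 signals were 7.93 and 8.82 (E10.5), 8.07 and 8.53 (E11.5), and 7.96 and 8.23 (E12.5), replicate 1 first, and each lay above the limit of its own array. The margin over the limit ran from 1.34 on the E10.5 replicate 1 array to 3.45 on the E10.5 replicate 2 array, which is 2.54 to 10.9 times the limit. The stages overlapped, and the 2 arrays of E10.5 differed by 0.89, more than any stage means did. Means of the stages in order were 8.38 ± 0.63, 8.30 ± 0.33 and 8.10 ± 0.19 (SD, n = 2). E12.5 minus E10.5 gave a log2 difference of -0.28 (95% interval -1.21 to 0.65, limma adjusted p = 0.991), and without the E10.5 replicate 2 array it was 0.17.

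*Erbb3* had the closest pair of arrays at E10.5 of the 7 genes. Its signals were 5.11 and 5.12 (E10.5), 4.80 and 4.31 (E11.5), and 4.75 and 4.43 (E12.5). Both E10.5 arrays lay above all later ones, and E11.5 and E12.5 overlapped. All 6 values lay below the limits of their arrays, by 0.26 at the E10.5 replicate 2 array and by 0.96 or more on the others. From E10.5 to E12.5 the change was -0.52 (95% interval -1.28 to 0.23, limma adjusted p = 0.991), or -0.36 for replicate 1 and -0.69 for replicate 2 taken alone. E11.5 minus E10.5 was -0.56 (95% interval -1.32 to 0.20, limma adjusted p = 1.0), and E12.5 minus E11.5 was 0.036.

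*Sox10* lay above the limit on all 6 arrays, but by little. Its signals were 6.78 and 6.19 (E10.5), 6.18 and 5.83 (E11.5), and 6.64 and 5.80 (E12.5). Margins over the limit were 0.19, 0.0026 and 0.088 on the replicate 1 arrays of the 3 stages, and 0.81, 0.45 and 0.41 on the replicate 2 arrays. With the 99th percentile of the receptor clusters as the limit, 0 of 6 arrays would pass. Both E11.5 arrays were below both E10.5 arrays, by a mean of 0.48 on the log2 scale (95% interval of the difference -1.42 to 0.47, limma adjusted p = 1.0), whereas E12.5 overlapped both earlier stages. E12.5 minus E10.5 gave -0.26 (95% interval -1.21 to 0.69, limma adjusted p = 0.991), and it turned to 0.034 without the E10.5 replicate 1 array and to 0.16 without the E12.5 replicate 2 array.

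*Foxd3* and *Snai2* lay around the limit. *Foxd3* had signals of 6.27 and 5.48 (E10.5), 5.51 and 5.15 (E11.5), and 5.36 and 5.65 (E12.5), and passed the limit on 2 arrays, the replicate 2 arrays of E10.5 and E12.5, by 0.11 and 0.25. Its highest value, that of the E10.5 replicate 1 array, was 0.31 below that array's limit. E12.5 minus E10.5 gave -0.37 (95% interval -1.25 to 0.50, limma adjusted p = 0.991), made up of -0.91 for replicate 1 and 0.17 for replicate 2, and it was 0.022 without the E10.5 replicate 1 array. *Snai2* had signals of 5.91 and 5.15 (E10.5), 5.15 and 5.58 (E11.5), and 5.31 and 4.90 (E12.5), and passed the limit on 1 array, E11.5 replicate 2, by 0.20. Its stages overlapped. The change from E10.5 to E12.5 came to -0.42 (95% interval -1.32 to 0.47, limma adjusted p = 0.991), and -0.044 without the E10.5 replicate 1 array.

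*Ets1* and *Twist1* were below the limit on every array. *Ets1* had signals of 4.55 and 4.27 (E10.5), 3.98 and 3.91 (E11.5), and 3.99 and 3.53 (E12.5). Both E10.5 arrays were above all later ones. Its mean over the arrays, 4.04, was higher than that of 59.2% of the receptor clusters, so it lay well inside the background. Its change from E10.5 to E12.5 was -0.65 (95% interval -1.40 to 0.09, limma adjusted p = 0.991), with -0.56 and -0.75 between the arrays of equal replicate number. *Ets1* is in the study's table of differentially expressed genes, which was made from these arrays, so its direction is not an independent result. *Twist1* had signals of 5.50 and 4.13 (E10.5), 4.42 and 4.46 (E11.5), and 4.003 and 4.08 (E12.5). Its E10.5 replicate 1 array stood 1.37 above the E10.5 replicate 2 array, while the pairs of the later stages were 0.036 and 0.080 apart. E12.5 minus E10.5 gave -0.77 (95% interval -1.86 to 0.32, limma adjusted p = 0.991), from -1.497 for replicate 1 and -0.047 for replicate 2, and it was -0.087 without the E10.5 replicate 1 array.

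**Figure D1:**
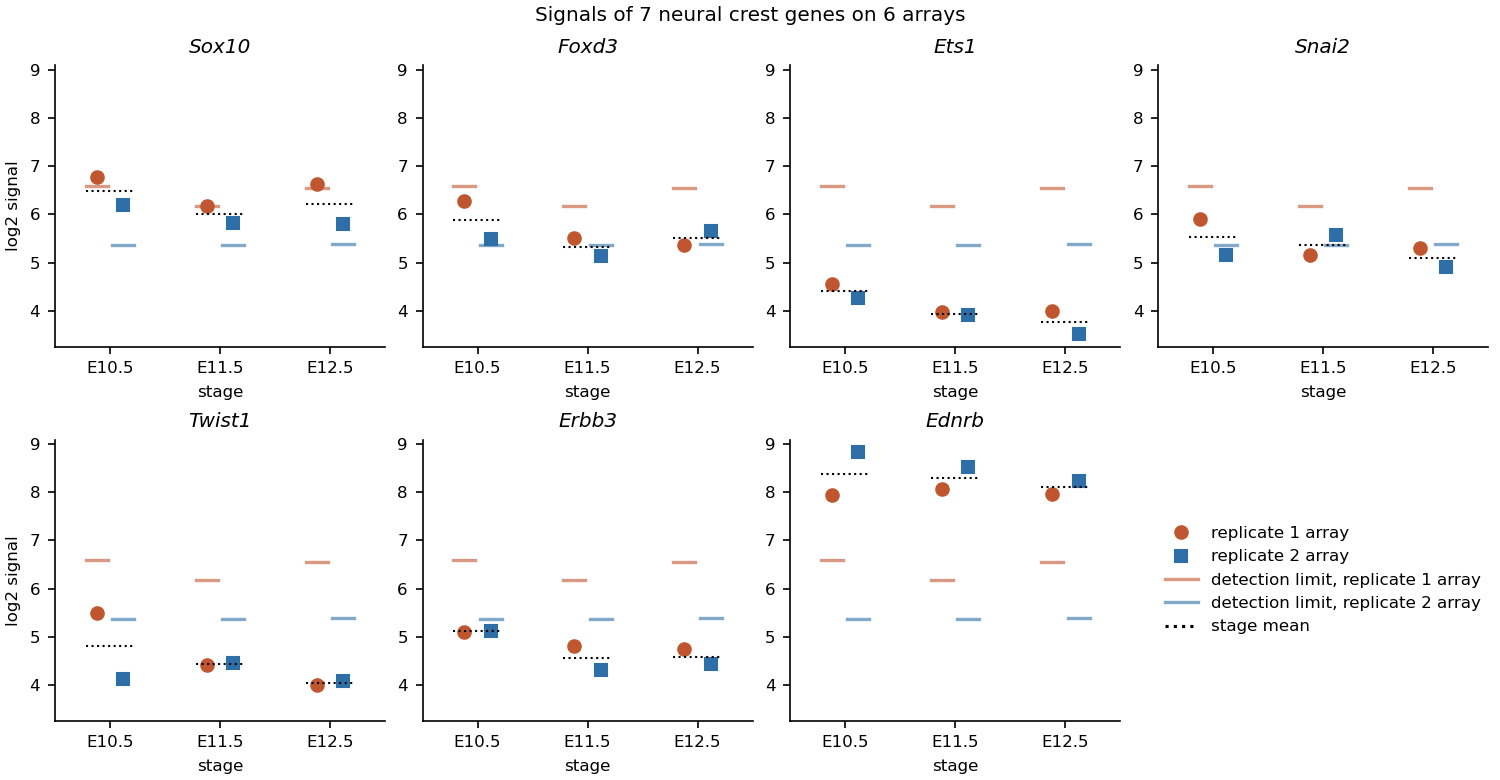
Log2 signal (vertical axis) of each of the 7 genes at the 3 stages (horizontal axis), with a circle for the replicate 1 array, a square for the replicate 2 array, a dotted line for the stage mean and a short bar for the detection limit of each array. *Ednrb* lies above the bars on all 6 arrays and *Sox10* just above them, *Foxd3* passes on 2 arrays and *Snai2* on 1, and *Ets1*, *Twist1* and *Erbb3* pass on 0. Signals of different genes come from different probes and are not levels to be set against each other.

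From E10.5 to E12.5 the mean of each of the 7 genes had a difference below 0, but none passed the test. In limma, with Benjamini-Hochberg adjusted p-values from all 23332 clusters, 0 clusters were called (0% of all) in this or the other comparisons. At an unadjusted p under 0.05 there were 928 clusters (3.98%), against 465 (1.99%) for E11.5 minus E10.5 and 212 (0.909%) for E12.5 minus E11.5, and 0 of the 7 genes were among them in any comparison. The 7 of 7 genes with a lower mean at E12.5 stand against 61.6% of all clusters. Of the 8269 clusters that name 1 gene and have a mean at or below the detection limit for means, 5.85, 6272 were lower. Only *Ednrb* and *Sox10*, 2 of the 7, had a mean above that limit, against 6727 of the 14996 clusters that name 1 gene. The median log2 difference of the 7 was -0.42, against -0.10 over all clusters and -0.17 over those 8269. In *Erbb3*, *Ets1* and *Twist1*, 3 of 7, both E12.5 arrays lay below both E10.5 arrays, against 14.0% of all clusters, while 0 of 7 were higher without overlap, against 9.35% of all clusters. *Erbb3*, *Ets1* and *Twist1* are also the 3 genes that never passed the limit. With 2 arrays against 2 the smallest two-sided p an exact permutation test can give is 0.333. In a bulk sort, fewer crest cells and less of these RNAs per cell cannot be told apart.

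The size of this difference depended on single arrays, most of all on the 2 arrays of E10.5. The highest of the 6 values was on the E10.5 replicate 1 array for 5 of 7 genes, and on the E10.5 replicate 2 array for *Erbb3* and *Ednrb*. The E10.5 replicate 1 array also held the highest value for 67.7% of the clusters that name 1 gene at or below the detection limit, against 20.6% of those above it. Without this array, 5 of 7 genes were lower at E12.5, against 42.9% of all clusters, and the median was -0.087, against 0.061 over all clusters. The median was -0.77 without the E10.5 replicate 2 array and -0.68 without the E12.5 replicate 1 array. With the E10.5 replicate 1 array left out, *Ednrb*, *Erbb3* and *Ets1* had -0.73, -0.53 and -0.51. Between the replicate 2 arrays alone, 6 of 7 genes were lower at E12.5, against 55.3% of all clusters. Their median there was -0.38, against -0.035 over all clusters. Centring each array on its median moved the median of all clusters from -0.10 to 0.031 and that of the 7 genes to -0.29. After it, 7 of 7 were still below 0, against 46.2% of all clusters. The receptor background was higher on the replicate 1 than on the replicate 2 array of every stage. The replicate 1 limits were 6.59 (E10.5), 6.17 (E11.5) and 6.55 (E12.5). The part of this background in these values was not tested.

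Of the 3 comparisons, the one between E11.5 and E10.5 also had 7 of 7 means lower at the later stage, and the one between E12.5 and E11.5 did not. At E11.5 the means of 7 of 7 genes were below those of E10.5, against 59.1% of all clusters. Of the 8269 clusters that name 1 gene at or below the limit, 6395 were lower. The median difference of the 7 was -0.47, against -0.071 over all clusters and -0.15 over those 8269. *Sox10*, *Erbb3* and *Ets1* were lower with no overlap, 3 of 7 against 9.90% of all clusters, and 0 of 7 were higher with no overlap, against 9.48%. For *Sox10* this rested on nearly equal values, 6.186 on the E10.5 replicate 2 array and 6.177 on the E11.5 replicate 1 array. Without the E10.5 replicate 1 array 5 of 7 were lower, against 40.5% of all clusters, and the median was -0.18, against 0.073 over all clusters. From E11.5 to E12.5, 4 of 7 genes were lower, against 53.8% of all clusters, and *Twist1* alone was lower with no overlap, against 13.4% of all clusters, with 0 of 7 higher, against 8.46%. Its difference was -0.40 (95% interval -1.49 to 0.69). *Sox10* (0.22), *Foxd3* (0.17) and *Erbb3* (0.036) had differences above 0. The comparisons of E11.5 and E12.5 with E10.5 share the E10.5 arrays.

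**Figure D2:**
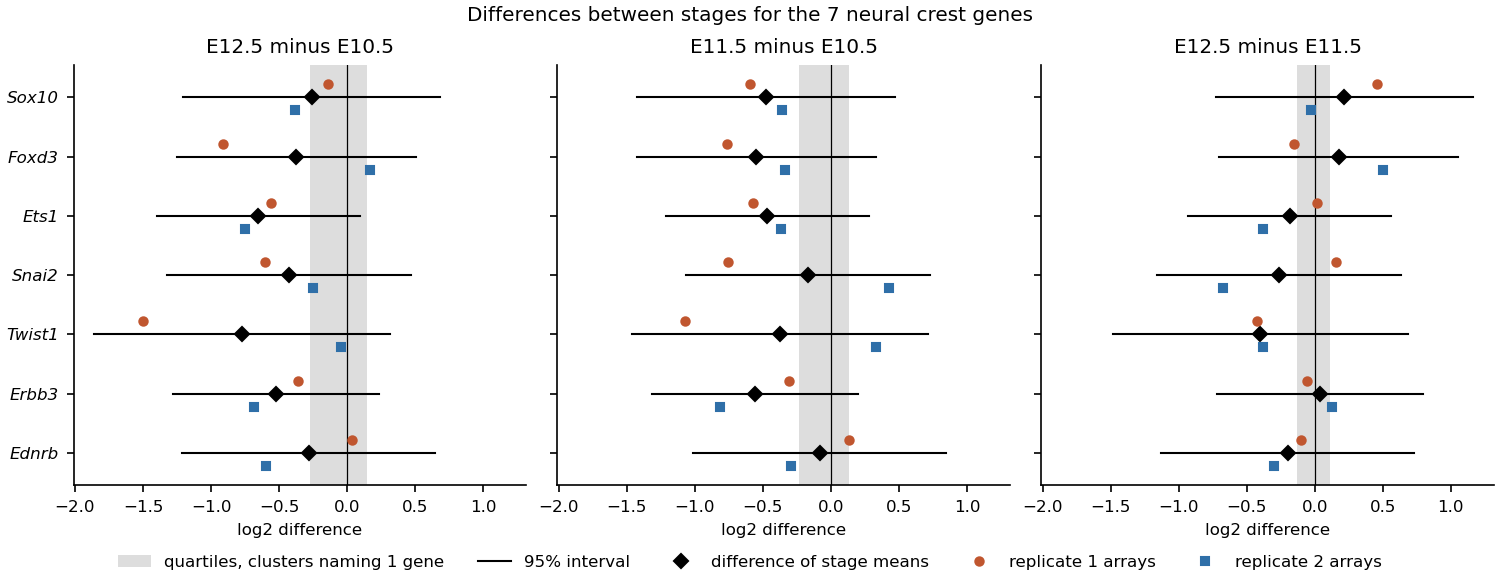
Log2 difference between stages (horizontal axis) for each of the 7 genes (vertical axis) in the 3 comparisons. Diamonds are differences of stage means with 95% intervals from limma, circles stand for replicate 1 and squares for replicate 2 taken alone, and the grey band spans the quartiles over the 14996 clusters that name 1 gene. Every interval reaches across 0, and the values of the 2 replicate numbers lie furthest apart for *Twist1* in the comparisons with E10.5.

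The ligands and partners of these proteins went both ways. The list held 18 genes, of which 13 have a cluster of their own. *Ednra*, *Erbb4*, *Twist2*, *Nrg2* and *Nrg3* were not analysed here. The median of E12.5 minus E10.5 was -0.043, with 3 of 13 genes lower and 2 higher without overlap, against 14.0% and 9.35% of all clusters. *Edn3*, the endothelin that activates the endothelin receptor type B, was below the limit on all arrays, at 5.32 and 4.43 at E10.5 and 4.79 and 4.41 at E12.5. *Nrg1*, the ligand of ErbB3, passed the limit on 4 arrays and had 6.59 and 6.59 (E10.5), 6.37 and 6.67 (E11.5), and 6.23 and 6.16 (E12.5), a difference of -0.40 with both E12.5 arrays below all others. *Erbb2*, which encodes the partner ErbB3 needs to signal, was below the limit on all arrays, with a difference of -0.33.

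Among the repressors that act beside *Snai2*, *Snai1* was below the limit on all arrays with a difference of -0.012, whereas *Zeb2*, a factor of crest cells that developing neurons also make, passed on all 6, at 8.38 and 8.95 at E10.5 and 8.73 and 8.78 at E12.5. *Tcf12* (0.33) and *Tcf4* (1.16), E-proteins that pair with Twist1 and with proneural factors, passed on all 6 as well. *Tcf3*, the other E-protein gene of the list, went the other way (-0.34). It passed on 3 arrays, and both its E12.5 arrays lay below both E10.5 arrays. *Tcf4* had the smallest p of the list between E12.5 and E10.5 (unadjusted p = 0.0323, limma adjusted p = 0.991). It had 7.62 and 8.74 at E10.5 and 9.07 and 9.61 at E12.5. Of the genes measured in this list, 3 (*Ece1*, *Nrg1* and *Snai1*) are in the study's table.

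Other genes of the crest went both ways. Of 20 genes, 19 were measured, and 7 of these passed the limit on all 6 arrays. A mean above the limit was found for 15 of the 19, against 6727 of the 14996 clusters that name 1 gene. For E12.5 minus E10.5, 8 were lower and 4 higher without overlap, against 14.0% and 9.35% of all clusters, with a median of -0.18, and 1 had an unadjusted p under 0.05. This was *Cdh6*, a cadherin of premigratory crest and dorsal neural tube, with 8.07 and 8.73 (E10.5), 7.80 and 7.68 (E11.5), and 7.03 and 7.28 (E12.5). Both arrays of each stage were below both of the stage before, and E12.5 minus E10.5 gave -1.25 (limma unadjusted p = 0.00788, adjusted p = 0.991). *Msx1* (-0.64), a factor of the dorsal midline as well as crest, *Msx2* (-0.56) and *Cxcr4* (-0.77) were lower without overlap. So were *Nr2f1* (-0.63), *Sox9* (-0.36), *Nr2f2* (-0.18) and *Sox5* (-0.16). *Cdh11*, a crest cadherin, had 8.27 and 9.28 at E10.5 and 9.24 and 9.25 at E12.5, with overlap. *Pax3* (0.49), *Zic1* (0.57), *Tfap2b* (0.67) and *Tfap2a* (0.80), which dorsal spinal cord cells express as well as crest, were higher without overlap. Whether the lower or the higher signals came from crest or from spinal cord cells was not tested.

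The genes of crest derivatives were mostly near background. Of 13 genes of Schwann cell precursors and nerve glia, 10 were measured. Of these, 3 had a mean above the limit, against 6727 of the 14996 clusters that name 1 gene. *Fabp7*, which spinal cord progenitors express too, was the only gene of this list above it on all 6 arrays. *Itga6*, an integrin subunit, passed on 4, with 5.77 and 7.24 at E10.5. The median of E12.5 minus E10.5 was -0.17, that of the clusters at or below the limit also being -0.17, and *Moxd1* had the smallest p (-0.77, unadjusted p = 0.0555), with both E10.5 arrays above all later ones. Of 7 measured melanoblast genes, *Kit* was the only one to pass the limit on any array, so that *Mitf*, *Dct* and the melanosome gene *Pmel* were below it on every array, and the list's median difference was -0.051. Of 6 measured genes of autonomic and enteric neuroblasts, none had a mean above the limit, and *Th*, of catecholamine synthesis, was the only one to pass on any array, namely on 3. The factors *Hand1* (-0.62) and *Hand2* (-0.38) passed on 0, and the list's median difference was -0.24. Of 11 measured genes of dorsal root ganglion neurons, 4 passed the limit on all 6 arrays, namely *Isl1*, *Ntrk2*, *Pou4f1* and *Ntrk3*, which are also made by neurons of the spinal cord, and the list's median difference was -0.12.

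Genes of other cells that make members of the set were mostly near background too. Of the 14996 clusters that name 1 gene, 6727 had a mean above the limit. Of 13 endothelial genes, 0 passed the limit on any array, *Pecam1*, *Cdh5*, *Erg*, *Esam* and *Sox18* among them, and their median difference was -0.19. *Ptprc*, a marker of white blood cells, was below the limit on all arrays. Of 11 measured genes of blood and microglia, 3 had a mean above the limit, among them the embryonic globin gene *Hba-x*, which passed on 5 arrays, and the median difference was -0.097. Of 15 measured genes of mesenchyme, 2 had a mean above the limit and 0 passed it on all 6 arrays, and *Prrx1* passed on 0 arrays, *Pdgfra* on 2 and the collagen genes *Col1a1* and *Col1a2* on 5 each. Their median difference was -0.21. The mean log2 signal of the mesenchyme list lay between 4.70 and 5.28 over the arrays, and that of endothelium between 4.02 and 4.83. Both lists were highest on the E10.5 replicate 1 array, as *Twist1* and *Ets1* were. The same held for most of the other lists, and for 67.7% of the clusters that name 1 gene at or below the detection limit. In the list for oligodendrocyte precursors, which also use *Sox10*, 2 of 7 genes, *Olig1* and *Olig2*, had a mean above the limit. *Gpr17* passed on 0 arrays, and the list's median difference was -0.30. *Olig2* passed on 5 of 6 arrays, at 6.80 and 5.94 at E10.5 and 6.22 and 6.16 at E12.5. Whether such precursors were present at any of these stages was not tested. Endothelium, blood and mesoderm lie outside the *Wnt1* lineage, and how many such cells the sort holds was not measured here. The part of any of these cells in the signals of the 7 genes was not tested.

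Genes of the labelled tissue were mostly above the limit. Among all clusters that name 1 gene, 6727 of 14996 had a mean above it. Of 15 measured genes of dorsal spinal cord neurons, 14 had a mean above the limit and 12 passed it on all 6 arrays, and their median change from E10.5 to E12.5 was 0.34, with 9 of 15 higher and 2 lower without overlap, against 9.35% and 14.0% of all clusters, and 4 of the measured genes are in the study's table. The 2 lower genes were *Lhx9* (-0.72, unadjusted p = 0.0402) and *Lhx2* (-0.60), factors of the dorsal-most commissural neurons. *Pax2*, of inhibitory interneurons, had 7.17 and 6.19 at E10.5 and 7.90 and 8.12 at E12.5 (limma adjusted p = 0.991), and *Dcx* and *Dcc*, of migrating neurons and growing axons, passed the limit on all 6 arrays. Dorsal progenitors and radial glia, which also make *Ednrb*, had 10 of 12 genes with a mean above the limit and a median difference of -0.35. *Sox2* and *Vim* passed on all 6, as did *Olig3*, of the dorsal-most progenitors, which had 9.52 and 9.81 at E10.5 and 8.36 and 8.67 at E12.5. *Wnt1* itself, whose control region drives Cre, passed the limit on 2 arrays. It had 4.88 and 5.97 (E10.5), 5.67 and 6.20 (E11.5), and 5.54 and 5.24 (E12.5). The roof plate list, of which *Wnt1* is part, had a median difference of -0.28 over 9 measured genes, with *Rspo3*, a Wnt agonist, at -1.35 and *Gdf10* at 0.14. *Lhx9*, *Pax2*, *Olig3* and *Rspo3* are in the study's table.

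**Figure D3:**
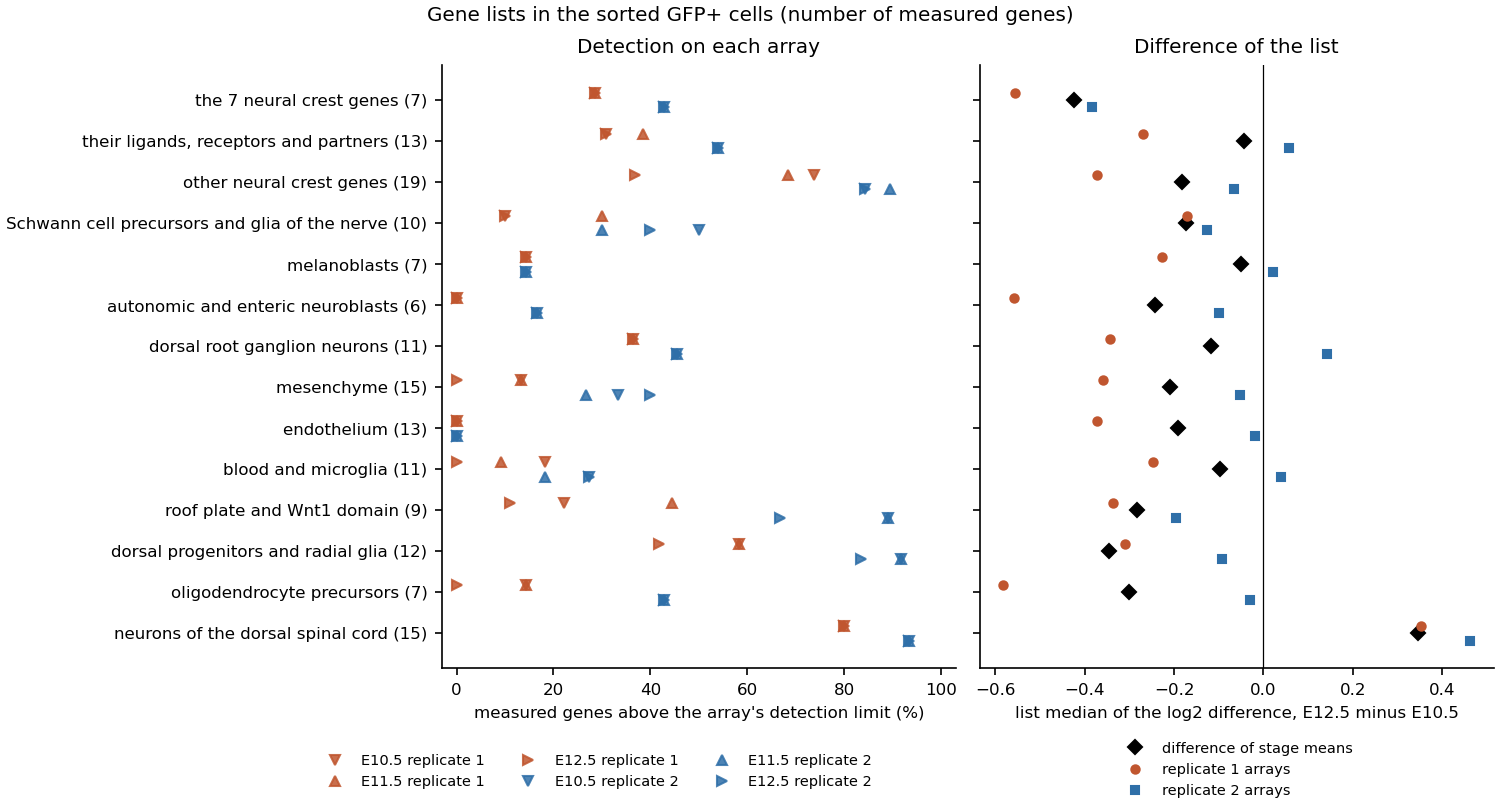
For each gene list (vertical axis, with the number of measured genes), the percent of measured genes above the detection limit of each of the 6 arrays (left, orange for replicate 1 and blue for replicate 2, with triangles pointing down for E10.5, up for E11.5 and right for E12.5) and the list's median change in log2 signal from E10.5 to E12.5 (right). Diamonds are medians of differences of stage means, and circles stand for replicate 1 and squares for replicate 2 taken alone. Of the 7 neural crest genes, 2 passed the limit on each replicate 1 array and 3 on each replicate 2 array at every stage, while their median difference was -0.42.

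At the 95th percentile limit, the number of genes of the set above it was the same at each stage. It was 2 on the replicate 1 arrays, *Ednrb* and *Sox10*. It was 3 on the replicate 2 arrays, where *Foxd3* joined at E10.5 and E12.5 and *Snai2* at E11.5. At the 90th percentile the stages differed, with 3 genes on the replicate 1 array and 5 on the replicate 2 array of E10.5, against 2 and 4 at either later stage. The mean log2 signal of the 7 genes was 6.01 and 5.59 (E10.5), 5.44 and 5.39 (E11.5), and 5.43 and 5.23 (E12.5), so that both E10.5 arrays were above the other 4.

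The profiles nearest to the members with the widest range over the arrays were compared as a description. Among 6727 clusters that name 1 gene and have a mean above the limit, the nearest were those with the smallest root mean square difference after each profile was centred on its own mean over the 6 arrays. For *Twist1*, whose range was 1.497, they were *Zbtb7a* (0.10), *Ptges3* (0.11) and *Nkx2-4* (0.12), each highest on the E10.5 replicate 1 array. For *Foxd3* (range 1.13) the nearest was *Olfr1349* (0.082), an olfactory receptor gene, followed by *Wnt2b* (0.097) and *Dmrt3* (0.11). For *Ets1* (range 1.02) they were *Rbpms* (0.072), an RNA-binding protein gene, *Uggt2* (0.076) and *Msx1* (0.082), a factor of the dorsal midline and crest. *Uggt2*, well above the limit, had 9.06 and 8.81 (E10.5), 8.36 and 8.45 (E11.5), and 8.35 and 8.03 (E12.5).

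**Figure D4:**
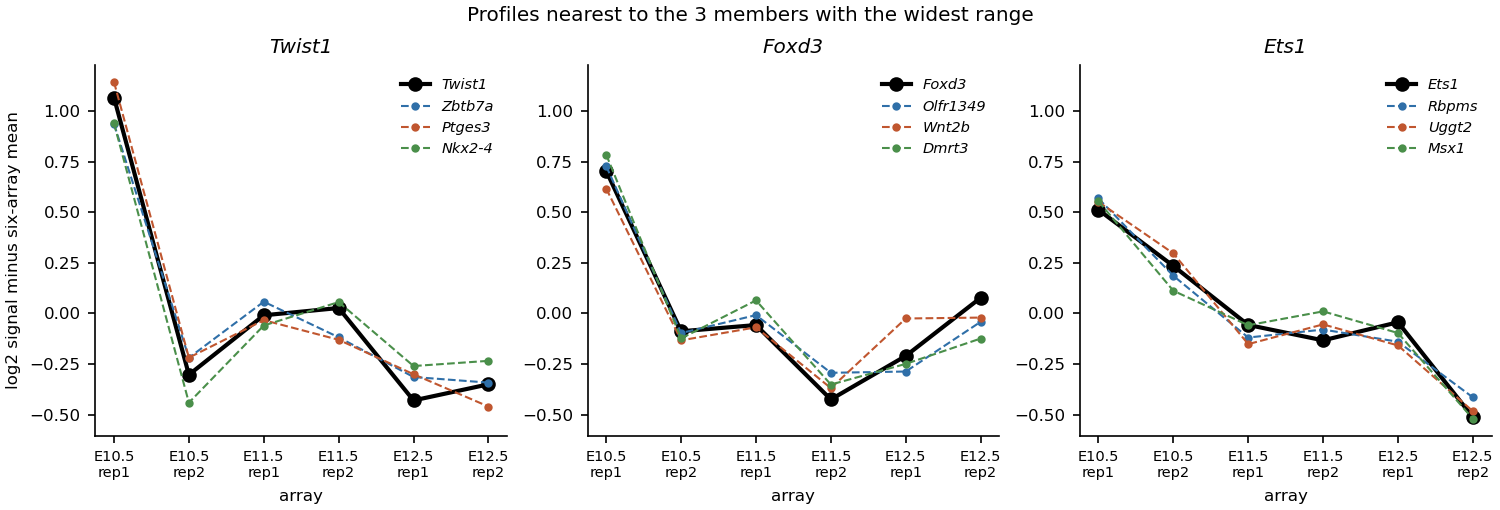
Log2 signal minus the mean over the 6 arrays (vertical axis) on each array (horizontal axis) for *Twist1*, *Foxd3* and *Ets1* (black) and the 3 nearest clusters of each (dashed). The profiles of *Twist1* and *Foxd3* peak on the E10.5 replicate 1 array, at 5.50 and 6.27 before centring, while that of *Ets1* has both E10.5 arrays above the rest.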

How the data were processed

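GFP+ cells of dorsal spinal cords from *Wnt1-cre*;*Rosa26mTmG* embryos were profiled on GeneChip Mouse Exon 1.0 ST arrays, 2 per stage. The deposited values are log2 signals that the authors made with oligo on mm9 per the labels, with version, background correction, normalization and summary method not given in the sources used here. They were used as deposited, without filter. Array spreads differ, and the receptor background lies higher on the replicate 1 arrays. Precision is limited by there being 2 arrays for each stage.

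Of 23332 clusters, the platform annotation names 1 gene for 14996, several for 1019, and does not list 7317. Where more than 1 cluster named a gene, that of the highest mean was taken. Tests between stages used limma 3.58.1 in R 4.3.3 (a mean per stage, moderated variances, Benjamini-Hochberg adjustment over all clusters, threshold 0.05), which was tested on simulated data. Figures were drawn with matplotlib 3.10.9 in Python 3.11.15. Lists of 173 genes, 154 of them measured, were described by counts and medians. Genes named are the 7 members, their partners, the defining markers (some are not reported here), and of each list the member with the smallest p and the 2 with the highest mean; other genes were chosen after their values were seen. Members and lists were chosen with earlier results of these data known. Alternatives were a replicate block, an intensity trend, no moderation, the compared stages alone, quantile normalization, median centring, other sets of clusters, other detection limits, and leaving out each array. Single replicate numbers and centring on the receptor clusters were added after the data were seen.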

Additional observations from a re-analysis of the deposited data

How the results depend on the processing

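Over 3 comparisons, 0 of 321 recomputed tests of the 7 genes passed an adjusted p of 0.05. Settings that can change a difference gave 189 values, of which 161 kept their direction and 28 turned. Between E12.5 and E10.5, *Erbb3*, *Ets1*, *Snai2* and *Twist1* stayed below 0 in each of the 9 such settings. The replicate 2 arrays alone gave *Foxd3* 0.17 and the replicate 1 arrays alone gave *Ednrb* 0.0335. Between E11.5 and E10.5, *Ednrb* turned to 0.0092 with median centring, 0.0697 with receptor centring and 0.13 in the replicate 1 arrays, and the replicate 2 arrays gave *Snai2* 0.43 and *Twist1* 0.33. Between E12.5 and E11.5, the replicate 2 arrays gave *Sox10* -0.0244. The replicate 1 arrays gave *Foxd3* -0.15, *Erbb3* -0.0554, *Ets1* 0.0134 and *Snai2* 0.16, and receptor centring gave *Erbb3* -0.0518. The cause was not tested.

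Leaving out each array in turn, the ranges between E12.5 and E10.5 were -0.68 to 0.16 for *Sox10*, -0.77 to 0.0219 for *Foxd3* and -0.73 to 0.17 for *Ednrb*. Between E11.5 and E10.5 they were -0.53 to 0.37 for *Ednrb*, -0.55 to 0.22 for *Snai2* and -1.06 to 0.31 for *Twist1*. Between E12.5 and E11.5 they were -0.20 to 0.63 for *Sox10*, -0.0089 to 0.36 for *Foxd3*, -0.21 to 0.28 for *Erbb3*, -0.43 to 0.0312 for *Ednrb* and -0.42 to 0.0515 for *Ets1*. The median of the 7 ranged from -0.77 to -0.0871 between E12.5 and E10.5, from -0.61 to -0.18 between E11.5 and E10.5, and from -0.20 to 0.0313 between E12.5 and E11.5, turning in the latter without replicate 2 of E12.5. The same median was -0.29 with median centring and -0.56 in the replicate 1 arrays between E12.5 and E10.5.

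The count of clusters called ranged from 0 to 325 between E12.5 and E10.5 and from 0 to 250 between E11.5 and E10.5 when each array was left out. Those calls arose without the E10.5 replicate 2 array, which leaves that stage with its outlying replicate 1 array, and none is of the 7 genes. The labels do not say what equal replicate numbers share. Deviations from the stage means correlated between arrays of the same number (0.46, 0.47 and 0.48). With the replicate number as a block, limma called 0 clusters, and 27 between E12.5 and E10.5 among clusters that name 1 gene, none of them one of the 7, whose smallest adjusted p there was 0.292, for *Ets1*. Under the block the counts at an unadjusted p under 0.05 were 2098, 1243 and 637, against 928, 465 and 212.

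With the 90th percentile of the receptor clusters as the limit, *Foxd3* passed on 4 arrays, *Snai2* on 3 and *Erbb3* on 1. With the 99th, *Sox10*, *Foxd3* and *Snai2* passed on 0 and *Ednrb* on 6. Low signals thus limit what can be said of the other genes. The 7 have 1 cluster each, so no other choice of cluster was possible for them.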

Other observations

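Some genes listed for other cell types were highest at a single stage. *Postn*, a matrix protein gene of mesenchyme, had 5.33 and 8.08 (E10.5), 4.51 and 3.76 (E11.5), and 3.97 and 3.60 (E12.5), so that it passed the detection limit on the E10.5 replicate 2 array alone, whereas *Twist1* was at 4.13 there. *Cx3cr1*, a chemokine receptor gene of microglia, passed the limit on 3 arrays. It had 8.06 and 6.19 at E10.5 and 6.18 and 6.07 at E12.5, while *Ptprc* was below the limit on all 6 arrays. *Kit*, a receptor gene of melanoblasts that spinal neurons also express, was higher at E12.5 (7.64 and 8.27) than at E10.5 (6.64 and 6.71), a log2 difference of 1.28 (limma unadjusted p = 0.00722, adjusted p = 0.991), while the melanoblast genes *Dct* and *Mitf* stayed below the limit. *Kit* is in the study's table.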
